A study of Homo sapiens with 12 samples.

Results

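Ribosome biogenesis genes encode the proteins that transcribe ribosomal RNA in the nucleolus, modify and cut it, and assemble it with ribosomal proteins into the small and large ribosomal subunits. RNA polymerase I makes the precursor of most ribosomal RNA. Small nucleolar ribonucleoproteins of the box C/D and box H/ACA kinds then methylate it and convert uridines to pseudouridine, and the small subunit processome and large subunit factors carry out cleavage and assembly. Many of these genes are known targets of the transcription factor MYC, and growing cancer cells, gastric ones included, depend on their activity. The set described here holds 44 such genes, listed by symbol, of 32269 identifiers in the count table. All 44 were found and all 44 passed the filter on low counts, which left 20280 genes. All are protein-coding, and gene positions below are those of GENCODE release 29 on GRCh38. By role, 6 are RNA polymerase I subunits or factors, 3 belong to the box C/D particle, 4 to the box H/ACA particle, 5 are nucleolar scaffold proteins or chaperones, 9 are small subunit processome proteins, 4 act late on the small subunit and 13 act on the large subunit.

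The study sequenced mRNA from AGS cells treated with cantharidin sodium, untreated AGS cells, treated MKN1 cells and untreated MKN1 cells, with 3 libraries in each of the 4 groups, which the series' design text describes as biological replicates. AGS and MKN1 are human gastric cancer cell lines, each a single line grown in culture, and cantharidin sodium is a salt of cantharidin, a beetle toxin known to inhibit the protein phosphatases PP2A and PP1. The sources used here state neither the dose nor how long the cells were treated. The comparisons ask what the compound does to gene expression in each line and how the lines differ.

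Library totals lay between 28604966 and 51604215 counts, and 3 counts, the limit of detection used here, stood for 0.0591 to 0.109 CPM (counts scaled to the size of the library). The lowest member value in any library was 14.6 CPM, for RRP9, far above this limit. Simple epithelial markers were present in every library, with a summed level of 4111 to 4710 CPM in treated AGS, 4449 to 5538 CPM in untreated AGS, 4895 to 6630.0 CPM in treated MKN1 and 5364 to 6574 CPM in untreated MKN1. Of the 6 gastric markers found, MUC5AC and TFF2 averaged below 1 CPM in both AGS groups, and MUC5AC, MUC6, TFF1, TFF2 and PGC did so in both MKN1 groups. All 6 squamous markers averaged below 1 CPM in AGS, whereas their summed level in MKN1 was 1990.4 to 2901 CPM in treated cells and 1463 to 2830 CPM in untreated cells. Of these, SPRR1B averaged below 1 CPM in both MKN1 groups. Fibroblast markers summed to 49.7 to 72.3 CPM in treated AGS and 42.1 to 45.6 CPM in untreated AGS, and to 49.7 to 91.0 CPM in treated MKN1 and 85.1 to 136 CPM in untreated MKN1. Of the 6 fibroblast markers, COL1A2, COL3A1, DCN and LUM averaged below 1 CPM in both AGS groups, as did PDGFRB in treated AGS. In both MKN1 groups COL1A2, COL3A1, PDGFRA and PDGFRB did so. Endothelial markers summed to 0.0304 to 0.364 CPM in treated AGS and 0.600 to 4.60 CPM in untreated AGS, and to 1.64 to 2.44 CPM in treated MKN1 and 1.41 to 2.41 CPM in untreated MKN1. Neither sum overlapped between the AGS groups, and both overlapped between the MKN1 groups. The gastric and blood sums did not overlap in either line: the gastric sum was 181 to 222 CPM in treated AGS and 124 to 154 CPM in untreated AGS, and 86.7 to 125 CPM in treated MKN1 and 222 to 274 CPM in untreated MKN1. The 3 blood markers found summed to 1.70 to 2.76 CPM in treated AGS and 7.88 to 20.5 CPM in untreated AGS, and to 18.3 to 32.9 CPM in treated MKN1 and 38.7 to 53.5 CPM in untreated MKN1, with PTPRC below 1 CPM in every group. Their part in the results was not tested. MKN1 untreated replicate 3 stood apart: its log2 CPM correlated with the other untreated MKN1 libraries at 0.9803 and 0.9826 (Pearson, across genes), while those correlated at 0.9944 with each other. It also had the lowest value of its group for 29 of the 44 members (65.9%, against 40.8% of all tested genes). AGS treated replicate 2 was the lowest of its group for 38 members (86.4%, against 31.8% of all genes), and AGS untreated replicate 2 for 31 (70.5%, against 35.5%). Counts of members past the threshold are also given without each of these libraries, beside the share of all genes called. Values of single genes outside the set are not given for those fits. In these bulk samples a lower level from fewer cells of a type cannot be told apart from less RNA per cell, and a CPM is a share of the library's mRNA, so that a change in total mRNA per cell is not measured. Ribosomal RNA itself was not measured.

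In treated AGS cells 7 members fell and 3 rose relative to untreated AGS cells. The 7 lower genes were GRWD1, TCOF1, BOP1, NHP2, PES1, FBL and RRP9, and the 3 higher genes were DDX21, HEATR1 and POLR1B. The changes were small, with log2 fold changes of −0.81 to −0.48 among the lower genes and 0.33 to 0.46 among the higher ones (edgeR quasi-likelihood test, Benjamini-Hochberg adjusted p below 0.05 over all tested genes). These 10 called genes are 22.7% of the members, near the 20.8% of all tested genes called in this comparison. All tested genes include many at lower levels than the members. With only genes of at least 5 CPM in 3 libraries tested, 11 members passed, against 26% of genes. The 7 lower members compare with 11.6% of all genes called lower and the 3 higher members with 9.21% called higher. Below, passing or not passing refers to the edgeR fit over all libraries unless another is named. That fit takes a single estimate of spread per gene from all 4 groups, MKN1 included. The median log2 fold change of the 44 members was −0.12, and that of all tested genes was −0.01. By separation of libraries, all 3 treated values lay below all 3 untreated values for 20 of the 44 members (45.5%, against 26.8% of all tested genes) and above them for 7 members (15.9%, against 25.6%). Summed over the members, treated AGS libraries held 5296, 4914 and 5474 CPM, and untreated AGS libraries held 5904, 5304 and 5568 CPM, ranges that overlap.

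**Figure D1:**
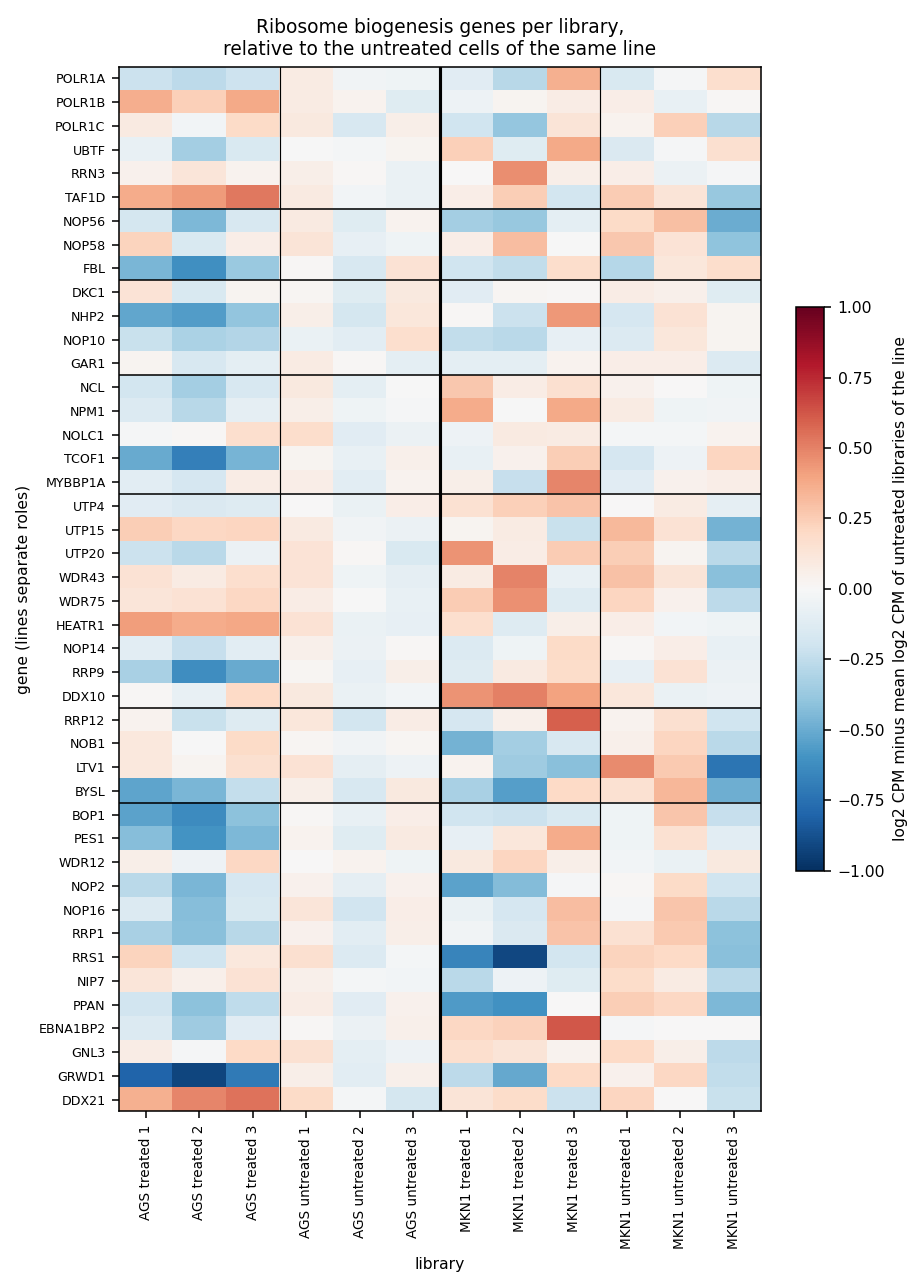
Level of each of the 44 genes (down the page, lines between roles) in each library (across), as log2 CPM minus the mean log2 CPM of the 3 untreated libraries of the same line; red is higher and blue lower. In AGS, GRWD1, TCOF1, BOP1 and PES1 are blue in every treated library and DDX21, HEATR1 and POLR1B are red in every one, while rows of MKN1 vary more between libraries of a group.

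Of the 6 RNA polymerase I genes, POLR1B rose in AGS and the other 5 did not pass. POLR1A, which carries the catalytic centre, had 82.0, 79.3 and 82.6 CPM in treated AGS cells, against 101, 92.8 and 92.4 CPM in untreated AGS cells. Treated values were all below untreated ones, but the log2 fold change of −0.23 (SE 0.15) had an edgeR adjusted p of 0.280 and did not pass. POLR1B (ENSG00000125630, chr2:112541915-112577150, plus strand), the other large subunit of the core, had 57.5, 52.7 and 58.2 CPM in treated cells, against 47.3, 45.9 and 41.2 CPM in untreated cells. All treated values were above all untreated ones, and POLR1B rose by 0.33 on the log2 scale (SE 0.10, adjusted p 0.0301). The ratio of POLR1B to POLR1A, not corrected for length and chosen after these values were seen, was 0.702, 0.665 and 0.705 in treated AGS libraries, against 0.468, 0.495 and 0.446 in untreated ones.

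The factors that bring the polymerase to the ribosomal DNA did not pass in AGS. UBTF, which binds along the ribosomal DNA, had 83.4, 69.4 and 78.9 CPM in treated cells, against 87.4, 86.6 and 89.4 CPM in untreated cells, without overlap (log2 fold change −0.18, SE 0.13, adjusted p 0.338). RRN3, which links the polymerase to its promoter factors, had 106, 112 and 106 CPM in treated cells, against 107, 104 and 98.4 CPM in untreated cells, and these ranges overlap (0.07, SE 0.12, adjusted p 0.733). TAF1D, a subunit of the promoter selectivity factor, averaged 126 ± 6.95 CPM in treated cells and 92.5 ± 5.39 CPM in untreated cells (SD, n = 3 each), and differed by 0.44 on the log2 scale (SE 0.15, adjusted p 0.0589). Its gene holds 8 small nucleolar RNA genes and shares 17.3% of its exon length with other genes. POLR1C, a subunit that RNA polymerase I shares with RNA polymerase III, differed by 0.08 (SE 0.16, edgeR adjusted p 0.737). It shares 18.2% of its exon length with genes on the other strand.

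In the box C/D particle the methyltransferase FBL (fibrillarin) fell while its scaffold partners did not pass. FBL (ENSG00000105202, chr19:39834458-39846414, minus strand) had 172, 155 and 182 CPM in treated AGS cells, against 238, 211 and 261 CPM in untreated AGS cells; the log2 fold change was −0.48 with an SE of 0.15 and an adjusted p of 0.0370. NOP56 had 237, 195 and 238 CPM in treated cells, against 284, 245 and 273 CPM in untreated cells, also without overlap, at −0.26 on the log2 scale (SE 0.18, adjusted p 0.316). NOP58 differed by 0.05 (SE 0.16, adjusted p 0.861). The ratio of FBL to NOP58, chosen after the values were seen, was 1.52, 1.77 and 1.80 in treated AGS libraries, against 2.25, 2.31 and 2.77 in untreated ones.

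In the box H/ACA particle NHP2 fell and the other 3 members did not pass. NHP2 (ENSG00000145912, chr5:178149460-178153967, minus strand), a core protein of the particle, had 34.5, 33.5 and 37.6 CPM in treated AGS cells, against 51.5, 43.8 and 53.6 CPM in untreated AGS cells, and the log2 fold change was −0.50 with an SE of 0.15 and an adjusted p of 0.0384. DKC1 (dyskerin), the pseudouridine synthase, had 122, 99.8 and 113 CPM in treated cells, against 113, 102 and 118 CPM in untreated cells, and the groups overlap (0.01, SE 0.11, adjusted p 0.967). The ratio of NHP2 to DKC1, also chosen after the values were seen, was 0.282, 0.336 and 0.333 in treated libraries, against 0.457, 0.428 and 0.453 in untreated ones. The other two core proteins, NOP10 and GAR1, differed by −0.28 (SE 0.11, adjusted p 0.0792) and −0.08 (SE 0.10, adjusted p 0.638). NHP2 shares 27.4% of its exon length with RMND5B on the other strand, and the kit does not mark strand.

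Of the nucleolar scaffold proteins and chaperones, only TCOF1 passed in AGS in the edgeR fit. TCOF1 (treacle; ENSG00000070814, chr5:150357629-150400308, plus strand), which acts in ribosomal DNA transcription and ribosomal RNA modification, had 81.9, 72.5 and 84.4 CPM in treated AGS cells, against 118, 110.2 and 120.5 CPM in untreated AGS cells. The groups were well separated, and the log2 fold change was −0.55 (SE 0.12, adjusted p 0.00933). NCL (nucleolin) and NPM1 (nucleophosmin) are the most abundant members per length, at 143 and 285 CPM per kilobase of exon in untreated AGS cells. NCL had 871, 783 and 886 CPM in treated cells, against 1059.5, 928 and 989.9 CPM in untreated cells, all lower (−0.23, SE 0.10, adjusted p 0.116). NPM1 had 991, 899 and 1024 CPM in treated cells, against 1137, 1057 and 1080.5 CPM in untreated cells, also without overlap (−0.17, SE 0.12, adjusted p 0.320). NPM1 has 45 named pseudogenes, 22 of them in the count table, so that its reads may be split among them. NOLC1, a chaperone of small nucleolar particles, and MYBBP1A, a nucleolar protein that binds MYB, differed by 0.05 (adjusted p 0.761) and −0.06 (adjusted p 0.803).

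In the small subunit processome, RRP9 fell and HEATR1 rose in AGS, and the other 7 members did not pass. RRP9 (ENSG00000114767, chr3:51933430-51941941, minus strand), a protein of the small nucleolar particle that guides early cleavage, had 17.9, 14.6 and 15.9 CPM in treated AGS cells, against 22.8, 21.2 and 23.4 CPM in untreated AGS cells. Its log2 fold change was −0.48 (SE 0.13, adjusted p 0.0190). HEATR1 (ENSG00000119285, chr1:236549005-236604504, minus strand), a large processome protein that also acts in ribosomal RNA transcription, had 164, 158 and 160.0 CPM in treated cells, against 135, 117 and 116 CPM in untreated cells. All treated libraries were higher, by 0.39 on the log2 scale (SE 0.10, adjusted p 0.0205). HEATR1 shares 23.1% of its exon length with genes on either strand. The other processome members, UTP4, UTP15, UTP20, WDR43, WDR75, NOP14 and DDX10, had log2 fold changes between −0.18 and 0.22, with adjusted p of 0.324 or more. The late small subunit factors RRP12, NOB1, LTV1 and BYSL lay between −0.41 and 0.10, the lowest being BYSL (SE 0.22, adjusted p 0.202).

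The large subunit group held the largest decrease of the set in AGS. GRWD1 (ENSG00000105447, chr19:48445773-48457022, plus strand), a WD-repeat protein whose yeast counterpart is a chaperone of a large subunit protein, had 48.8, 44.9 and 52.02 CPM in treated AGS cells, against 88.2, 79.0 and 87.8 CPM in untreated AGS cells. It was 1.75-fold lower in treated cells, a log2 value of −0.81 with an SE of 0.17 and an adjusted p of 0.00579. Of the 3 proteins of the PeBoW complex, which matures the RNA of the large subunit, PES1 and BOP1 fell and WDR12 did not pass. PES1 (ENSG00000100029, chr22:30576625-30607083, minus strand) had 68.9, 61.4 and 68.1 CPM in treated cells, against 94.9, 85.2 and 98.7 CPM in untreated cells (−0.49, SE 0.12, adjusted p 0.0160). BOP1 (ENSG00000261236, chr8:144262102-144291370, minus strand) had 25.3, 23.7 and 27.6 CPM in treated cells, against 37.0, 34.8 and 38.5 CPM in untreated cells (−0.52, SE 0.13, adjusted p 0.0126). WDR12 averaged 58.3 ± 5.26 CPM in treated cells and 55.3 ± 1.51 CPM in untreated cells (SD, n = 3 each; adjusted p 0.618). By ratios chosen after the values were seen, PES1 stood to WDR12 as 1.19, 1.152 and 1.07 in treated libraries, against 1.71, 1.505 and 1.84 in untreated ones, and BOP1 to WDR12 as 0.439, 0.445 and 0.432 in treated libraries, against 0.666, 0.615 and 0.718 in untreated ones.

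DDX21 (ENSG00000165732, chr10:68956128-68985073, plus strand), a nucleolar RNA helicase, moved the other way in AGS. It had 408, 449 and 465 CPM in treated AGS cells, against 365, 316 and 283 CPM in untreated AGS cells, all higher, by 0.46 on the log2 scale (SE 0.14, adjusted p 0.0407). NOP2, a methyltransferase of large subunit RNA, had 66.2, 58.1 and 71.2 CPM in treated cells, against 82.2, 75.2 and 82.5 CPM in untreated cells, without overlap (−0.30, SE 0.15, adjusted p 0.172). NOP2 shares 54.4% of its exon length with another gene on the same strand, so its counts are uncertain. The other large subunit members, NOP16, RRP1, RRS1, NIP7, PPAN, EBNA1BP2 and GNL3, had log2 fold changes between −0.34 and 0.11 and edgeR adjusted p of 0.165 or more. NIP7 shares 20.15% of its exon length with a gene on the other strand.

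**Figure D2:**
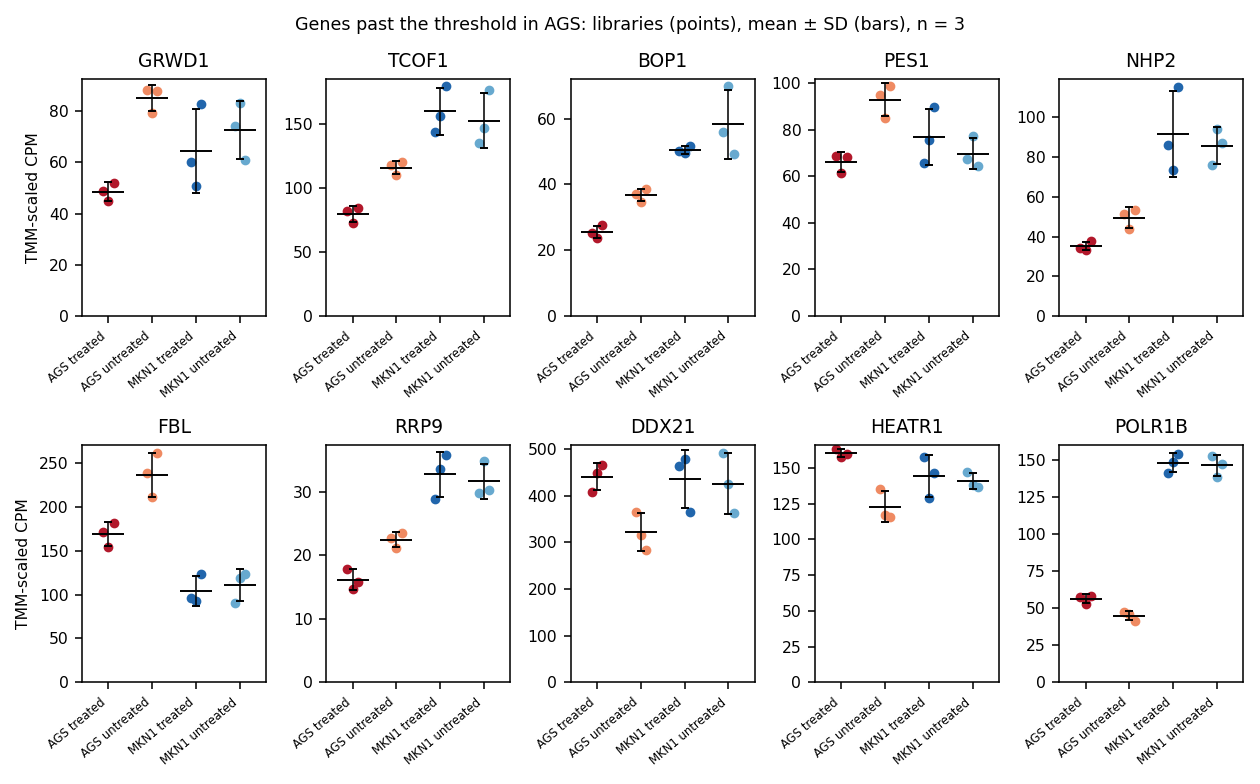
TMM-scaled CPM (vertical axes from 0) of the 10 genes past the threshold in AGS, with each library as a point and mean ± SD as bars (n = 3 per group). GRWD1 sits between 44.9 and 52.02 CPM in treated AGS, below all untreated AGS libraries, while its MKN1 groups overlap.

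The AGS count was lower in each fit that left out an AGS library. Without treated replicate 1, 2 or 3 the number of members past the threshold was 5, 2 or 4, against 11.9%, 10.4% or 11.8% of all genes called. Without untreated replicate 1, 2 or 3 it was 5, 7 or 2, against 12.1%, 13.6% or 9.85% of all genes, so the share of all genes called was also below the 20.8% of the fit with all libraries. GRWD1 and TCOF1 passed in each of the 12 fits that left out 1 library and in each of the 10 other alternatives. No other member of the 10 called in AGS did. With the AGS groups fitted alone, 20 members passed, 5 higher and 15 lower, against 48.2% of all genes. Besides the 10 these were POLR1A, TAF1D, NOP56, NOP10, NCL, UTP15, BYSL, NOP2, RRP1 and PPAN. TAF1D also passed with DESeq2 size factors, the DESeq2 Wald test, the replicate block and the filter of at least 5 CPM in 3 libraries.

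Changes in AGS varied with base composition. Over the 44 members, the Spearman correlation between the GC content of the longest transcript and the log2 fold change was −0.77, given as a description, since all points come from the same 6 libraries; over 20207 tested genes with a GC value it was −0.27. Among the 15 members below 45% GC, 3 rose and 0 fell, with a median log2 fold change of 0.09, where all genes of that class had a median of 0.15, 13.3% called higher and 4.34% called lower. Among the 16 members between 45% and 55% GC, 0 rose and 1 (FBL, 54.3% GC) fell, with a median of −0.17 (all genes −0.02, 8.51% higher and 11% lower). Among the 13 members at 55% GC or more, 0 rose and 6 fell, with a median of −0.41 (all genes −0.26, 4.98% higher and 21.5% lower). These counts come from the same edgeR fit. When trends with GC content and transcript length were removed within each library, 3 members remained past the threshold in AGS (FBL at −0.32, TCOF1 at −0.44 and GRWD1 at −0.63, all lower), and the correlation over the members was −0.24. In that fit 21% of all genes were called. Among the members no longer past the threshold, the log2 fold changes with the trends removed were −0.21 for BOP1, −0.18 for RRP9, −0.26 for NHP2 and −0.26 for PES1, and 0.27 for DDX21, 0.22 for POLR1B and 0.18 for HEATR1, with edgeR adjusted p-values between 0.0596 (DDX21) and 0.28 (HEATR1). In MKN1 the same correlation was −0.35 over the members and −0.11 over all tested genes with a GC value. With the trends removed it was −0.08 over the members. Whether the trend in either line has a source in the cells or in the libraries was not tested.

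**Figure D3:**
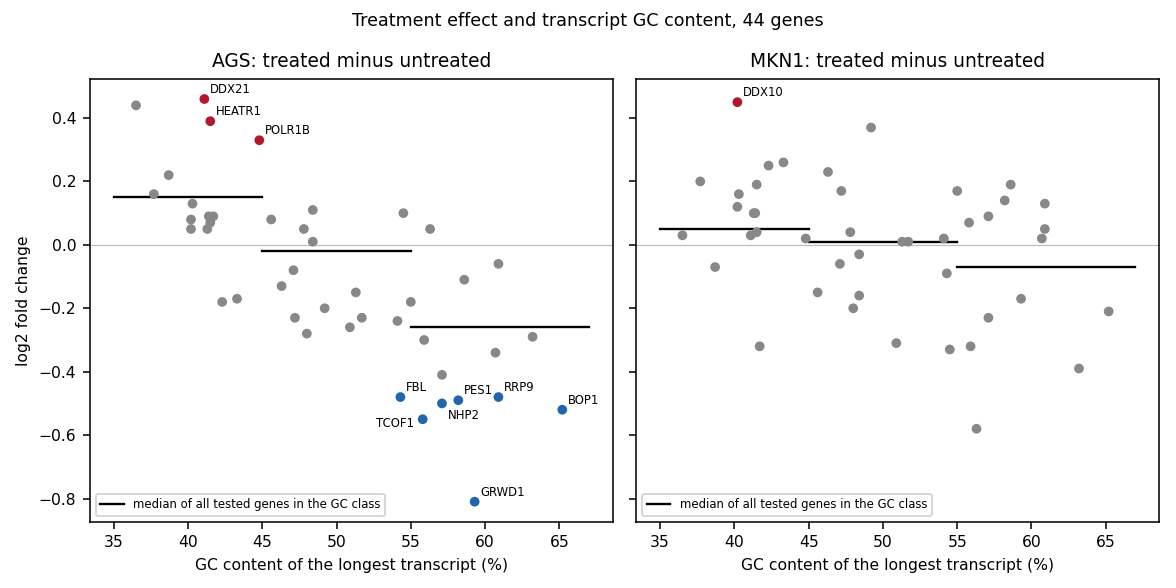
Log2 fold change, treated minus untreated, against the GC content of the longest transcript (%) for the 44 genes in AGS (left) and MKN1 (right); red points are past the threshold and higher, blue points lower, and black lines are the medians of all tested genes in 3 GC classes. In AGS the 3 higher genes lie below 45% GC and the 7 lower genes at 54.3% or above.

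Promoter sequence was examined because MYC and related factors bind the E-box CACGTG, a palindrome that reads the same on both strands. In RefSeq windows of 300 bases (250 before and 50 after the start, GRCh38.p14), 38 of the 44 members had an entry. Of these, 16 (42.1%) held at least 1 CACGTG in any window of the gene. Counted the same way, 1546 of 13006 tested genes with an entry (11.9%) did. The 47 windows of the members held 18 matches, and 16 of them began between 31 bases before and 43 bases after the transcription start. In AGS the 16 members with the motif had a median log2 fold change of −0.17, with 1 higher and 3 lower, and the 22 without it had a median of 0.03, with 2 higher and 2 lower. In MKN1 the medians were 0.04 with the motif and 0.02 without it. A match describes the sequence and does not show binding.

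To show where the motif lies, 100 bases from 70 before to 30 after the start follow in lower case, on the gene's strand, with CACGTG in capitals. FBL (chr19:39846350-39846449, minus strand), PES1 (chr22:30591881-30591980, minus) and RRP9 (chr3:51941875-51941974, minus) fell in AGS and hold the motif. DDX21 (chr10:68956577-68956676, plus) rose and holds it. GRWD1 (chr19:48445913-48446012, plus) fell and HEATR1 (chr1:236604487-236604586, minus) rose, and neither has it in the window.
FBL: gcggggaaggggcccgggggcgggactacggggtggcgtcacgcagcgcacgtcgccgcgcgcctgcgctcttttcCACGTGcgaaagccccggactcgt
PES1: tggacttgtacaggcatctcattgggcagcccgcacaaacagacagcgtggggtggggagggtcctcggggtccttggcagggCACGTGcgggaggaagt
RRP9: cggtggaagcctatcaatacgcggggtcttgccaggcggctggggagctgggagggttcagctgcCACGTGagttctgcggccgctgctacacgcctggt
DDX21: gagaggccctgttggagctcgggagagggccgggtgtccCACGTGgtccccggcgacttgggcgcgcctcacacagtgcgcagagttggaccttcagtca
GRWD1: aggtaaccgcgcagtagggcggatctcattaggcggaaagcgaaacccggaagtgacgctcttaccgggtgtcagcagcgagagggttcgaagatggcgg
HEATR1: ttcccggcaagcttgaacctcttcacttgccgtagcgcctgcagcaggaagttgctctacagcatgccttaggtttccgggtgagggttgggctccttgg
The motif began 7, 14, −5 and −31 bases from the printed start in FBL, PES1, RRP9 and DDX21. With windows chosen this way, it was present near a start both in genes that fell and in a gene that rose.

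In MKN1 cells a single member passed. DDX10 (ENSG00000178105, chr11:108665025-108940930, plus strand), an RNA helicase of the small subunit processome, had 43.1, 44.7 and 41.7 CPM in treated MKN1 cells, against 34.2, 30.2 and 30.6 CPM in untreated MKN1 cells. All treated values were higher, by 0.45 on the log2 scale (SE 0.11, edgeR adjusted p 0.0310). This is 2.27% of the members, against 6.7% of all tested genes called (2.8% higher and 3.9% lower). No member fell in the edgeR, limma voom or DESeq2 tests, and DESeq2 called 2 members, both higher, against 12% of all genes. An unadjusted edgeR p below 0.05 in either direction was found for 6 of the 44 members, against 4750 of 20280 tested genes. The median log2 fold change was 0.03 for the members and 0.01 for all genes. All treated values lay above all untreated ones for 4 members, NCL, UTP4, DDX10 and EBNA1BP2 (9.09%, against 9.95% of all genes), and below them for 0 (against 11.4% of all genes). In AGS the same gene DDX10 had 31.5, 29.6 and 35.7 CPM in treated cells, against 33.4, 29.7 and 30.5 CPM in untreated cells, which overlap (0.05, SE 0.11, adjusted p 0.790). The DDX10 call was lost in 6 of the 12 fits that left out a library (treated AGS replicate 1, untreated AGS replicates 2 and 3, treated MKN1 replicates 1 and 2, untreated MKN1 replicate 2), with an adjusted p of up to 0.134, and with MKN1 fitted alone (0.182).

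The 2 lower members with the smallest p in MKN1 were RRS1 and NOB1. RRS1, an assembly factor of the large subunit, had 34.5, 28.98 and 47.9 CPM in treated MKN1 cells, against 63.4, 62.4 and 40.9 CPM in untreated MKN1 cells. The ranges overlap through untreated replicate 3 and treated replicate 3 (−0.58, SE 0.20, adjusted p 0.106). NOB1, the nuclease of the last cut in small subunit RNA, had 32.9, 36.1 and 40.8 CPM in treated cells, against 47.5, 53.0 and 38.0 CPM in untreated cells (−0.33, SE 0.13, adjusted p 0.139). Without untreated replicate 3, 6 members passed in MKN1, against 15.1% of all genes. DDX10 was higher (0.42, edgeR adjusted p 0.0291), and NOP56 (−0.52, 0.0166), NOB1 (−0.46, 0.0168), LTV1 (−0.60, 0.0125), RRS1 (−0.76, 0.0173) and PPAN (−0.59, 0.0279) were lower. RRS1, NOB1 and LTV1 share 11.4%, 20.25% and 34.8% of their exon length with other genes, so their counts are uncertain. Without treated replicate 3, 3 members passed, DDX10 higher and NOP2 and RRS1 lower, against 6.24% of all genes.

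The core genes of MKN1 showed no call in the fit over all libraries. POLR1A had 85.3, 76.1 and 118 CPM in treated MKN1 cells, against 83.2, 91.5 and 104 CPM in untreated MKN1 cells, and POLR1B had 141, 149 and 154 CPM in treated cells, against 153, 138 and 147 CPM in untreated cells. UBTF had 105, 81.9 and 116 CPM in treated cells, against 80.7, 88.4 and 99.4 CPM in untreated cells, and RRN3 had 71.0, 97.8 and 73.7 CPM in treated cells, against 74.2, 67.9 and 70.2 CPM in untreated cells. In each of these the groups overlap, and the log2 fold changes were 0.01, 0.02, 0.17 and 0.19, with adjusted p of 0.364 or more.

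FBL had 95.8, 92.4 and 124 CPM in treated MKN1 cells, against 90.1, 119 and 124 CPM in untreated MKN1 cells (−0.09, SE 0.15, adjusted p 0.763). NOP56 had 172, 167 and 204 CPM in treated cells, against 249, 269 and 155 CPM in untreated cells (−0.31, SE 0.18, adjusted p 0.322). DKC1 had 144, 158 and 157 CPM in treated cells, against 163, 161 and 143 CPM in untreated cells (−0.03, SE 0.11, adjusted p 0.915). In NOP56 the low untreated value is that of replicate 3, and the other two untreated libraries lie above every treated one.

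NCL had 1384, 1208 and 1284 CPM in treated MKN1 cells, against 1179, 1150.4 and 1113 CPM in untreated MKN1 cells, all higher (0.17, SE 0.10, adjusted p 0.323). NPM1 had 1709, 1317 and 1719.9 CPM in treated cells, against 1399.9, 1280.5 and 1288 CPM in untreated cells, with overlap (0.26, SE 0.12, adjusted p 0.198). NOP2 had 49.4, 53.1 and 71.2 CPM in treated cells, against 72.2, 81.9 and 62.4 CPM in untreated cells (−0.32, SE 0.15, adjusted p 0.215). The spread between replicates was wider in MKN1: the median SD of log2 CPM over the members was 0.10 in treated AGS, 0.09 in untreated AGS, 0.22 in treated MKN1 and 0.20 in untreated MKN1, and over all tested genes 0.13, 0.14, 0.27 and 0.27.

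**Figure D4:**
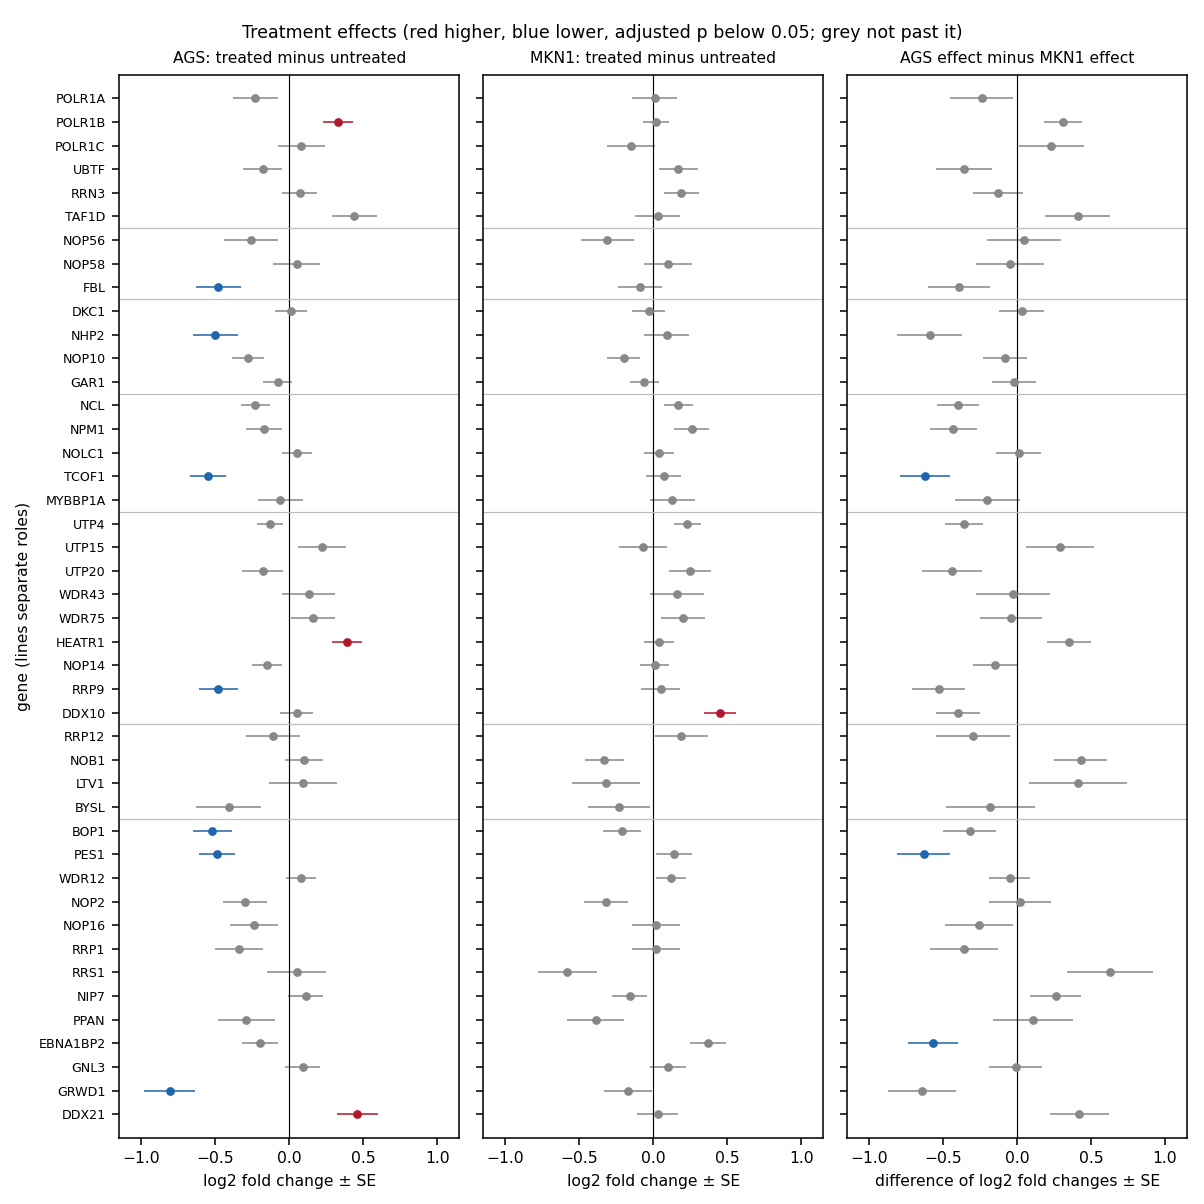
Log2 fold change ± SE of each of the 44 genes in AGS (left), in MKN1 (middle) and as the AGS effect minus the MKN1 effect (right); red is past the adjusted p of 0.05 and higher, blue lower, grey not past it. The left panel holds 10 coloured genes, the middle panel 1 and the right panel 3.

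The treatment effect differed between AGS and MKN1 for 3 members, TCOF1, PES1 and EBNA1BP2, each lower in the AGS effect than in the MKN1 effect. This is 6.82% of the members, against 15.7% of all tested genes called for this difference (8.38% lower and 7.3% higher). The median difference over the members was −0.10. TCOF1 had 144, 156 and 180.3 CPM in treated MKN1 cells, against 135, 147 and 177 CPM in untreated MKN1 cells, with overlap, and its effect in AGS minus that in MKN1 was −0.62 on the log2 scale (SE 0.17, edgeR adjusted p 0.0311). PES1 had 65.7, 75.4 and 89.7 CPM in treated MKN1 cells, against 67.4, 77.2 and 64.5 CPM in untreated MKN1 cells, and its difference was −0.63 (SE 0.18, adjusted p 0.0288). EBNA1BP2 (ENSG00000117395, chr1:43164175-43270936, minus strand), a large subunit assembly factor, passed in neither line alone. It had 77.9, 66.8 and 78.9 CPM in treated AGS cells, against 86.1, 82.0 and 88.5 CPM in untreated AGS cells, all lower (−0.20, SE 0.12, adjusted p 0.257).

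EBNA1BP2 had 220.1, 224 and 293 CPM in treated MKN1 cells, against 189, 191 and 191 CPM in untreated MKN1 cells, all higher (0.37, SE 0.12, adjusted p 0.0860). Its difference between the effects was −0.57 (SE 0.17, adjusted p 0.0396). It shares 20.5% of its exon length with other genes. No member had a difference past the threshold in the other direction in the edgeR, limma voom or DESeq2 tests. An unadjusted edgeR p below 0.05 in either direction was found for 14 of the 44 members, against 6312 of 20280 tested genes. Among members with a positive difference, HEATR1 (0.35, SE 0.15, adjusted p 0.124) and NOB1 (0.43, SE 0.18, adjusted p 0.126) had the smallest p. Without untreated MKN1 replicate 3, 9 members passed, against 22.2% of all genes: TCOF1, PES1 and EBNA1BP2 were lower, and TAF1D, UTP15, NOB1, LTV1, RRS1 and NIP7 were higher. TCOF1, PES1 and EBNA1BP2 passed in 4, 6 and 3 of the 12 fits that left out a library; no member passed in the fits that left out treated AGS replicate 1, 2 or 3, untreated AGS replicate 1 or 3, or untreated MKN1 replicate 1, in which 10.1% to 12.1% of all genes were called. In the fit without treated MKN1 replicate 2, 7 members passed, all lower, against 16% of all genes. A single member passed without treated MKN1 replicate 3 (13.1% of all genes) or without untreated MKN1 replicate 2 (11.5%). Over the 44 members the Spearman correlation of the AGS effect with the MKN1 effect was 0.12, a description over genes, and over all tested genes it was −0.09.

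Between the lines, more members were lower in AGS than in MKN1. In untreated cells 24 members differed, 6 higher and 18 lower in AGS, which is 54.5% of the members, against 66.3% of all tested genes (31.4% higher and 34.9% lower). The median difference was −0.21 over the members and −0.04 over all genes. With DESeq2 size factors or upper-quartile factors the median of all genes moved to −0.11 and −0.12, and the count became 29, with 6 higher and 23 lower in either. POLR1B had 47.3, 45.9 and 41.2 CPM in untreated AGS cells, against 153, 138 and 147 CPM in untreated MKN1 cells, a log2 difference of −1.71 (SE 0.10, edgeR adjusted p 6.46e-09). Its partner POLR1A had 101, 92.8 and 92.4 CPM in untreated AGS cells, against 83.2, 91.5 and 104 CPM in untreated MKN1 cells, which overlap (0.04, SE 0.15, adjusted p 0.822).

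The next largest members lower in AGS all act on the large subunit. NOP16 had 42.8, 34.5 and 41.1 CPM in untreated AGS cells, against 97.9, 119 and 81.8 CPM in untreated MKN1 cells (−1.34, SE 0.17, adjusted p 1e-05). PPAN, an early assembly factor, had 36.2, 31.9 and 35.4 CPM in untreated AGS cells, against 98.1, 95.5 and 60.8 CPM in untreated MKN1 cells (−1.30, SE 0.19, adjusted p 5.31e-05). EBNA1BP2 had 86.1, 82.0 and 88.5 CPM in untreated AGS cells, against 189, 191 and 191 CPM in untreated MKN1 cells (−1.16, SE 0.12, adjusted p 2.14e-06). In each of these the lines do not overlap. PPAN shares 59.8% of its exon length with other genes, among them a read-through with P2RY11, so its level is uncertain. NOP16 shares 19.95% with genes on the other strand.

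FBL was the member with the largest excess in AGS. It had 238, 211 and 261 CPM in untreated AGS cells, against 90.1, 119 and 124 CPM in untreated MKN1 cells (1.10, SE 0.15, adjusted p 2.68e-05). NOP14, a processome protein, had 85.2, 79.2 and 83.2 CPM in untreated AGS cells, against 52.3, 54.3 and 49.4 CPM in untreated MKN1 cells (0.67, SE 0.10, adjusted p 7.74e-05). NOLC1 had 196, 160.3 and 167 CPM in untreated AGS cells, against 118, 118 and 122 CPM in untreated MKN1 cells (0.55, SE 0.10, adjusted p 0.000419).

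RRN3 had 107, 104 and 98.4 CPM in untreated AGS cells, against 74.2, 67.9 and 70.2 CPM in untreated MKN1 cells (0.55, SE 0.12, adjusted p 0.00127). NOP14 shares 17.1% of its exon length with NOP14-AS1 on the other strand. PES1 and NOP10 were the other two members higher in AGS, by 0.42 and 0.40. All 4 box H/ACA members differed between the untreated lines, with DKC1, NHP2 and GAR1 lower in AGS by −0.49, −0.79 and −0.72 and NOP10 higher.

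**Figure D5:**
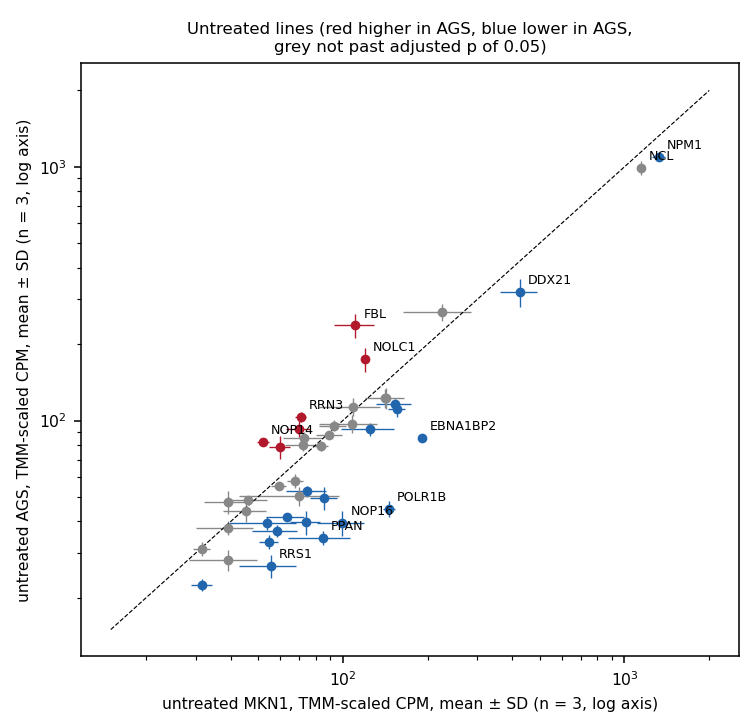
Mean TMM-scaled CPM ± SD (n = 3) of the 44 genes in untreated AGS (vertical) and untreated MKN1 (horizontal), on log axes, with the line of equal levels dashed; red is past the threshold and higher in AGS, blue lower in AGS. POLR1B lies farthest below the line and FBL farthest above it.

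In treated cells 28 members differed between the lines, 6 higher and 22 lower in AGS (63.6%, against 68.1% of all tested genes, 31.4% higher and 36.8% lower). The median difference was −0.36 over the members and −0.08 over all genes. TCOF1 averaged 79.6 ± 6.25 CPM in treated AGS cells and 160.3 ± 18.3 CPM in treated MKN1 cells (SD, n = 3 each), a log2 difference of −1.01 (SE 0.12, adjusted p 8.94e-06), where the untreated difference was −0.40 (SE 0.12, adjusted p 0.0122). NCL and NPM1 were lower in treated AGS than in treated MKN1 by −0.61 (SE 0.10) and −0.70 (SE 0.12). EBNA1BP2 had the largest treated difference, −1.72 (SE 0.12, adjusted p 5.12e-08).

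Other genes of the same pathway are described for AGS by counts and medians beside the 20.8% of all genes called, in lists made with earlier results of these data known. Of 9 other RNA polymerase I genes, 1 rose (TAF1A, 0.61, SE 0.16, edgeR adjusted p 0.0208) and 0 fell, with a median of −0.07. That list leaves out POLR2L and POLR2E, shared with RNA polymerase II and given below. Of 47 other small subunit factors, 4 rose and 5 fell (19.1% called), with a median of −0.04; RRP7A (−0.57), DDX49 (−0.49) and DHX37 (−0.65) had the smallest adjusted p. Of 55 other large subunit factors, 5 rose and 5 fell (18.2% called), with a median near 0; among these URB1 rose by 0.64, and FTSJ3 and NOL12 fell by 0.57 and 0.68.

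Subunits listed under RNA polymerases II and III and the ribosomal proteins gave further values. Of all tested genes in AGS, 9.21% were called higher and 11.6% lower, and 10310 of 20280 lay below 0. Of 12 RNA polymerase II core subunits 0 rose and 7 fell in AGS, with a median of −0.46. Some of them, POLR2L and POLR2E included, are also subunits of RNA polymerases I and III. POLR2L had 24.4, 23.4 and 29.8 CPM in treated cells, against 60.8, 59.2 and 62.0 CPM in untreated cells (−1.23, SE 0.19, edgeR adjusted p 0.00163). POLR2E differed by −0.58 (SE 0.11, edgeR adjusted p 0.00405). Of 11 subunits specific to RNA polymerase III, 1 rose and 2 fell. Of 78 cytosolic ribosomal protein genes 0 rose and 5 fell in AGS, with a median of −0.20 and 66 of the 78 below 0. In MKN1, 0 ribosomal protein genes passed in either direction. An unadjusted edgeR p below 0.05 was found for 21 of the 78, against 4750 of 20280 tested genes. Their median was −0.23, and 77 of the 78 lay below 0, against 10029 of 20280 tested genes. In MKN1, where 6.7% of all genes were called, the calls in the pathway lists were 0 of 9 other RNA polymerase I genes, 1 of 47 small subunit factors (AATF, 0.46, adjusted p 0.0349) and 2 of 55 large subunit factors (NOP53, −0.65, and TEX10, 0.39).

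MYC itself had 142, 138 and 152 CPM in treated AGS cells, against 97.0, 83.2 and 86.5 CPM in untreated AGS cells, all higher (0.70, SE 0.34, adjusted p 0.164). It had 15.4, 31.8 and 40.8 CPM in treated MKN1 cells, against 65.7, 60.5 and 24.2 CPM in untreated MKN1 cells (−0.77, SE 0.34, adjusted p 0.196), and the effect in AGS minus that in MKN1 was 1.47 (SE 0.48, adjusted p 0.0558). Neither effect nor their difference passed the threshold. Each SE rests on a single estimate of spread for the gene over all 4 groups, so the SE in AGS also carries the spread of the MKN1 libraries. In MKN1, untreated replicate 3 lay within the treated range and the other untreated libraries lay above it. Between the lines MYC was higher in AGS, by 2.30 on the log2 scale in treated cells (SE 0.35, edgeR adjusted p 6.98e-05) and by 0.83 in untreated cells (SE 0.34, adjusted p 0.0456). Of 9 genes listed as MYC and partners, 2 rose and 1 fell in AGS (33.3%, against 20.8% of all tested genes). The MYC relatives MXD4 and MXI1, which bind the same partner MAX, had AGS log2 fold changes of −1.24 (edgeR adjusted p 0.000701) and 0.88 (edgeR adjusted p 0.00268). MGA, also listed, had 0.42 (edgeR adjusted p 0.0474). In MKN1, 0 of the 9 passed, against 6.7% of all tested genes.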

How the data were processed

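RNA was sequenced from 12 libraries, and per the labels' protocols they were made from TRIzol-extracted RNA with the NEBNext Ultra RNA kit, which does not mark strand. The submitters' processing notes name HISAT2 2.0.4 and the build hg38. The sources used here name no counting tool, strand setting or annotation release. What the authors deposited is a table of raw counts by gene, not normalized. Symbols matched 32069 of 32269 identifiers, and GENCODE release 29 gave 32136 positions. Totals per library were 28604966 to 51604215 counts. Limits of detection (3 counts) cover counting error only.

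Counts were modelled in edgeR 4.0.16 (R 4.3.3) in 1 fit of 4 group means, after filterByExpr (20280 genes) and TMM scaling, with quasi-likelihood F tests and Benjamini-Hochberg adjustment over all tested genes (threshold 0.05). Residual degrees of freedom were 8, prior ones 4.91, and the common biological variation was 19.7% (coefficient). CPM are TMM-scaled, and SDs are over the 3 libraries of a group. GC content is that of the longest GENCODE transcript. No 2 libraries of a group agreed within sampling noise (lowest chi-square per degree of freedom 10.4). The design text speaks of biological replicates and does not say whether the cultures were separate. The p-values therefore measure the spread between these libraries, which may be technical. That spread is a single estimate per gene over all 4 groups, so p-values and SEs within AGS also carry the spread of MKN1, and the reverse. With the groups of a line fitted alone, 48.2% of all genes were called in AGS and 0.184% in MKN1, against 20.8% and 6.7%.

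The members and lists were chosen with earlier results of these data known. Values in every library are given for 12 core genes fixed by name and for the called members with the largest changes (up to 6 per direction in AGS, 4 elsewhere, or the 2 with the smallest p where none passed). List genes named are the 3 with the smallest adjusted p at 5 CPM or more. Alternatives were DESeq2 size factors, upper-quartile factors, library totals, DESeq2 1.42.0, limma 3.58.1 (voom), no filter, at least 5 CPM in 3 libraries, a replicate block, each comparison's groups alone, removal of GC and length trends, and each library left out.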

Additional observations from a re-analysis of the deposited data

Results flagged for a closer look

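For 3 genes the treatment effect differed between the lines by a test of the difference itself (edgeR contrast of AGS effect minus MKN1 effect, adjusted over all tested genes). The difference was −0.62 on the log2 scale for TCOF1 (SE 0.17, adjusted p 0.0311), which was lower in 3 of 3 treated AGS libraries than in every untreated AGS library and overlapped in MKN1. It was −0.63 for PES1 (SE 0.18, adjusted p 0.0288), with the same pattern of libraries. It was −0.57 for EBNA1BP2 (SE 0.17, adjusted p 0.0396), lower in 3 of 3 treated AGS libraries and higher in 3 of 3 treated MKN1 libraries than in every untreated library of the line. Under the other settings these differences ranged from −0.73 to −0.52, −0.74 to −0.48 and −0.65 to −0.42. Their adjusted p, with 1 library left out, reached 0.0969, 0.0778 and 0.103. In the same comparison 15.7% of all tested genes were called.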

How the results depend on the processing

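Shares in brackets are of all genes called in the same fit. In AGS, 10 members passed (20.8%); 6 did with no filter on low counts (10.3%), 3 (0 higher and 3 lower, against 3 and 7) with GC content and length trends removed (21%), 20 with the AGS groups fitted alone (48.2%), and 2 to 12 with 1 library left out (9.85% to 26.4%). In MKN1, 1 passed (6.7%); 2 did with library totals alone (6.4%), 2 with the DESeq2 Wald test (12%), 2 with GC content and length trends removed (9.36%), 0 with the MKN1 groups fitted alone (edgeR, 0.184%), and 0 to 6 with 1 library left out (1.6% to 15.1%). For the effect difference, 3 passed (15.7%); 9 did with library totals alone (16.2%), 6 with the DESeq2 Wald test (20%), 0 with no filter (7.7%), 7 (1 higher and 6 lower) with GC content and length trends removed (20.1%), and 0 to 9 with 1 library left out (10.1% to 22.2%); it has no fit with a line alone. The line differences stayed within 1.5 times of 24 (untreated, 19 to 27 with 1 library left out) and 28 (treated, 22 to 31) in every alternative. No member called in a comparison changed sign in any alternative. Deviations of same-numbered treated and untreated libraries correlated at 0.0458, 0.108 and −0.0482 in AGS and 0.156, −0.0586 and 0.242 in MKN1. For differently numbered libraries the correlations ran from −0.15 to 0.12 in AGS and from −0.298 to 0.183 in MKN1. With 3 libraries per group these values cannot decide whether the numbers pair samples. With the replicate block 11, 1, 3, 24 and 26 members passed in the 5 comparisons. Apart from the fits with fewer libraries, the cause of these shifts was not tested. Every member lay above the limit of detection in every library. Among genes of at least 5 CPM in 3 libraries, the shares called were 26% in AGS, 9.97% in MKN1 and 19.2% for the effect difference. For the line differences they were 72% (untreated) and 73.3% (treated).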
